A study of Mus musculus with 6 samples.

Results

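The genes described here are 10 RNA-binding proteins that set neuronal splicing and mRNA stability, namely Nova1, Nova2, Ptbp1, Ptbp2, Elavl2, Elavl3, Elavl4, Rbfox1, Rbfox2 and Srrm4. They are listed by name, by a rule that uses no measured value although earlier results of these data were known when it was written, and are 10 of the 45583 rows of the count table. RNA was sequenced from the brain cortex of 6 male fetuses at GD15.5 (gestational day). All 6 carried the strain label Cyp19-EGFP, a line with a bacterial artificial chromosome transgene of Cyp19a1 and EGFP on an FVBN background per the study's methods, and all were labelled WT and SRY +. In the vehicle group, 3 fetuses came from dams given peanut oil, and in the BPA group, 3 fetuses came from dams given 50 µg/kg of bisphenol A (BPA), a plastics monomer with oestrogenic activity. Dams were dosed from GD10.5 to GD14.5. Each library is a separate fetus, but the labels do not give the litter of each fetus, so the p-values measure only the spread between these fetuses. Dosing was by dam, and whether fetuses of a group shared a dam could not be checked.

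Most pre-mRNAs of the brain are spliced in more than 1 way, and RNA-binding proteins decide which exons are kept as a progenitor becomes a neuron. Ptbp1 holds neuronal exons out of transcripts in progenitors, its relative Ptbp2 takes its place in young neurons, and Nova, Rbfox, Elavl (Hu) and Srrm4 proteins then promote neuronal exons or stabilise neuronal mRNAs. These proteins also regulate each other's transcripts. Counts per gene measure the amount of each regulator's RNA, not the splicing it controls.

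An example of that cross-regulation is a 34-base exon of Ptbp2, exon 10, which Ptbp1 is known to keep out so that the shortened transcript is degraded by nonsense-mediated decay. It lies at chr3:119724612-119724645 on the minus strand (GRCm38, GENCODE M21), in the coding part of the gene. It is shown because 3 of the 6 annotated transcripts that span it hold it, 2 of those without it are annotated as decay targets, and a count per gene adds these forms together. The exon is in capitals, with 12 bases of the adjoining exon of the spliced transcript on each side.
Ptbp2 exon 10: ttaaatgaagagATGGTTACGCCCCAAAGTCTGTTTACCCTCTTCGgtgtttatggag

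The members of a family are similar in sequence, so reads could in principle be shared between them. The longest run of identical bases between any Elavl3 and Elavl4 transcript was 29 bases, in the coding exon at chr9:22018600-22018628 of Elavl3 and chr4:110206429-110206457 of Elavl4, both on the minus strand. The longest run between Rbfox1 and Rbfox2 was also 29 bases and crossed an exon junction in both genes, spanning chr16:7292251-7294071 on the plus strand and chr15:77102938-77105603 on the minus strand, introns included. Both runs are shown in lower case because every base is shared.
Elavl3 and Elavl4: ttcggcttcgtcaccatgaccaactacga
Rbfox1 and Rbfox2: accgtggtagagggccgtaaaatcgaggt
Both are shorter than a read of 50 bases, so a read that matched without error could not fall wholly within either. The longest runs were 23 bases for Elavl2 with Elavl4, 17 for Elavl2 with Elavl3, 16 for Nova1 with Nova2 and 15 for Ptbp1 with Ptbp2.

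Known binding letters of these proteins were looked for in the last 1000 bases of the longest coding transcript of each gene, on the transcript strand alone, which is a description and not evidence of binding. The Rbfox word TGCATG was in the window of 2 of the 10 genes, Elavl4 and Ptbp2, against 27.3% of 11474 tested genes with such a window. Both sites lie in annotated 3′ UTRs on the minus strand of GRCm38, at chr4:110204247-110204272 and chr3:119719425-119719450. They are shown with the word in capitals.
Elavl4: acccactaagTGCATGtagacaggac
Ptbp2: caggaactggTGCATGtatttttcaa
The Ptbp word CTCTCT was found in 4 of the 10 windows, those of Nova2, Ptbp2, Rbfox2 and Srrm4, against 35.2% of genes. The Elavl word TTTATTT was found in 7 of the 10, against 31.6%, and was not in the windows of Nova2, Ptbp1 and Rbfox2.

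The libraries held 3444601 to 7180835 counts, and BPA replicate 3 was the shallowest. Tbr1, a marker of excitatory cortex, was present in every library with 1943 to 4814 counts, and the neuron marker Bcl11b with 2168 to 5154. Summed neuron markers (12 genes) were 10336 to 10901 CPM (counts scaled to library size with TMM factors) in vehicle and 10225 to 10755 in BPA, and radial glia markers (10 genes) were 1963 to 2074 and 1864 to 2077. Values in BPA were lower for 8 of the 12 neuron markers (median log2 fold change -0.036) and 6 of the 10 radial glia markers (median -0.0090). Markers of ventral telencephalon differed more, with 12 of 12 lower in BPA, against 49.5% of all genes tested. Of the 12, 6 had an unadjusted p under 0.05 by edgeR, against 2.2% of all genes. The log2 fold changes ran from -1.34 (Lhx8) and -1.25 (Nkx2-1) to -0.085 (Gad1). Summed levels of the 12 were 1126 to 1285 CPM in vehicle and 972 to 1078 in BPA, which did not overlap. Markers of oligodendrocyte precursors and astrocytes were lower for 6 of 6, against 49.5% of all genes tested. Olig1 and Olig2 had an unadjusted p under 0.05. Gfap had only 5 to 20 counts a library, and Aqp4 had 6 to 14 with a log2 fold change of -0.029. Summed levels of these markers were 99.5 to 122 CPM in vehicle and 83.9 to 109 in BPA, which overlapped. Ttr, the transport protein made by choroid plexus, was at 195 CPM in vehicle replicate 2 and 308 in BPA replicate 2, and at 2.21 to 11.9 in the other 4 libraries. In bulk tissue, fewer cells of a type and less RNA per cell cannot be told apart.

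All 10 genes passed the filter on low counts, among 13741 genes tested, and together they held 0.353 to 0.397% of the counts of a library. Levels were compared between genes as CPM per kilobase of exonic length. Elavl3, the neuronal Hu protein HuC, and Rbfox2, the most widely expressed of the Rbfox splicing factors, were highest. Elavl3 averaged 135 over the 6 libraries (range 124 to 143) and Rbfox2 averaged 126 (109.6 to 138), so that on this scale these neighbours in the order did not differ beyond their spread. Both stood clear of the next gene, Elavl4 (HuD), at 41 (34.2 to 43.2).

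From Elavl4 down to Elavl2, each of 7 genes overlapped the next in range. Nova2 averaged 40.9 per kilobase (33.8 to 46.9), Rbfox1 38.7 (36.5 to 42) and Ptbp2 37.6 (35.6 to 40.8). Ptbp1 averaged 33.2 (28.5 to 39.1), Srrm4 31.2 (26.8 to 36.5) and Elavl2 27.2 (25.5 to 29.4). Neighbours in this order did not differ beyond their spread, but Elavl2 lay below every library of Elavl4, Nova2, Rbfox1 and Ptbp2. Nova1 was lowest at 11.2 (9.56 to 15.2), below every library of Elavl2. It was at percentile 63.6 of tested genes with a length, and the others lay between percentiles 86 (Elavl2) and 98.9 (Elavl3).

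The order depended in part on the length used. Per kilobase of the longest coding transcript, chosen as an alternative after seeing the data, Ptbp2 moved up from place 6 to 3 with a level of 91.4 (86.5 to 99). On that scale Elavl2 reached 53.9 (50.6 to 58.4) at place 5, and Nova2 stayed at 40.9 at place 8. Elavl3 at 186 (171 to 197), Rbfox2 at 148 (129 to 163) and Nova1 at 13.7 (11.7 to 18.5) kept places 1, 2 and 10, but the ranges of Elavl3 and Rbfox2 did not overlap on that scale.

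**Figure D1:**
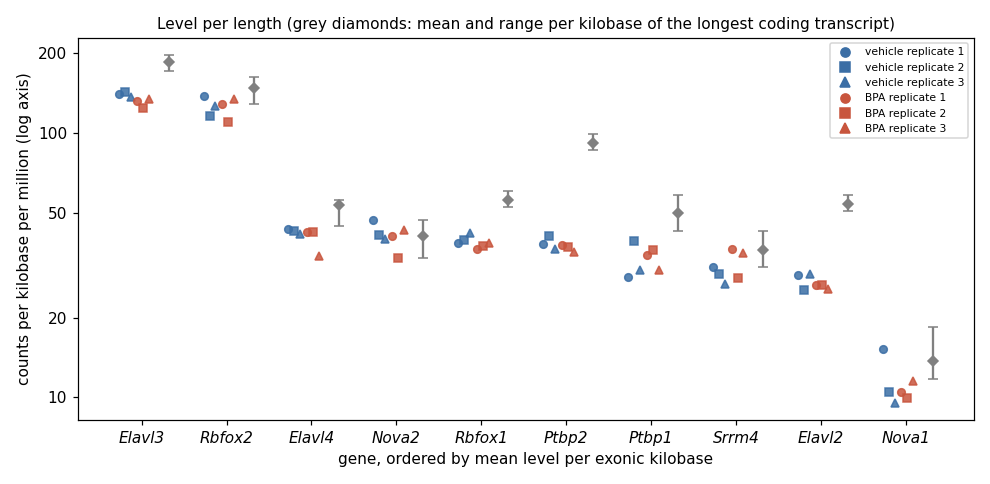
Level of each of the 10 genes as CPM per kilobase of exonic length, on a log axis, with 1 symbol per library and grey diamonds for the mean and range per kilobase of the longest coding transcript. Elavl3 and Rbfox2 sit above 100 in every library, 7 genes lie between 25.5 and 46.9 with each overlapping its neighbour in the order, and Nova1 lies lowest at 9.56 to 15.2.

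Within each family the share of the summed level per exonic length was narrow across libraries. Nova2, which in the brain is the main Nova protein of the neocortex while Nova1 is prominent in hindbrain and spinal cord, held 75.6 to 80.6% of the Nova level. Elavl3 held 57.7 to 61.6% of the 4 Elavl genes, with 15.7 to 19.6% for Elavl4, 11 to 12.8% for Elavl2 and 9.11 to 11% for Elavl1, the Hu protein (HuR) made in nearly all tissues. Among the Rbfox genes, Rbfox2 held 65.4 to 71%, Rbfox1 19.5 to 22.4% and Rbfox3, whose protein is the neuronal marker NeuN, 9.26 to 12.3%. The same gene led these 3 families per coding transcript length too, where Nova2 held 71.7 to 77.3%, Elavl3 53.6 to 57.7% and Rbfox2 58.5 to 64.8%. Srrm4, which drives the inclusion of neuronal microexons, held 77.7 to 83% of its summed level with Srrm3 (71.3 to 77.6% per coding transcript length).

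Per exonic length, the leading gene held the smallest share in the Ptbp family. Ptbp2 held 47.3 to 51.4% of the summed level, Ptbp1 38.7 to 45.9% and Ptbp3 6.84 to 9.9%. Ptbp2 was ahead of Ptbp1 in all 6 libraries by this measure, and by more per coding transcript length, with 60.1 to 64.6% against 29.9 to 36%. On that scale Elavl3 held a smaller share of its family, 53.6 to 57.7%, so the order of families depended on the length used. By level, the progenitor form and the neuronal form were at percentiles 89.2 and 90.9 of tested genes.

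The main question of the design was whether these regulators differed between cortices of BPA and vehicle fetuses. At an adjusted p of 0.1 (quasi-likelihood test of edgeR), none of the 10 genes was called, and neither was any other, the share over all 13741 genes being 0%. None reached an unadjusted p under 0.05 either, against 302 genes (2.2%) of all those tested. The count of members was also 0 on both measures in DESeq2 and limma-voom, where the smallest p of a member was 0.105 and 0.107, both for Srrm4. The libraries of the groups did not overlap for 1 of the 10 genes, Elavl3, against 6.75% of all genes. Values in BPA were below vehicle for 8 of the 10, against 49.5% of all genes, and above it for Ptbp1 and Srrm4. The median log2 fold change (BPA minus vehicle) of the 10 was -0.091, beside 0.0016 over all genes tested, and their median absolute value was 0.096, beside 0.089. The adjusted p of each member was 1.

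**Figure D2:**
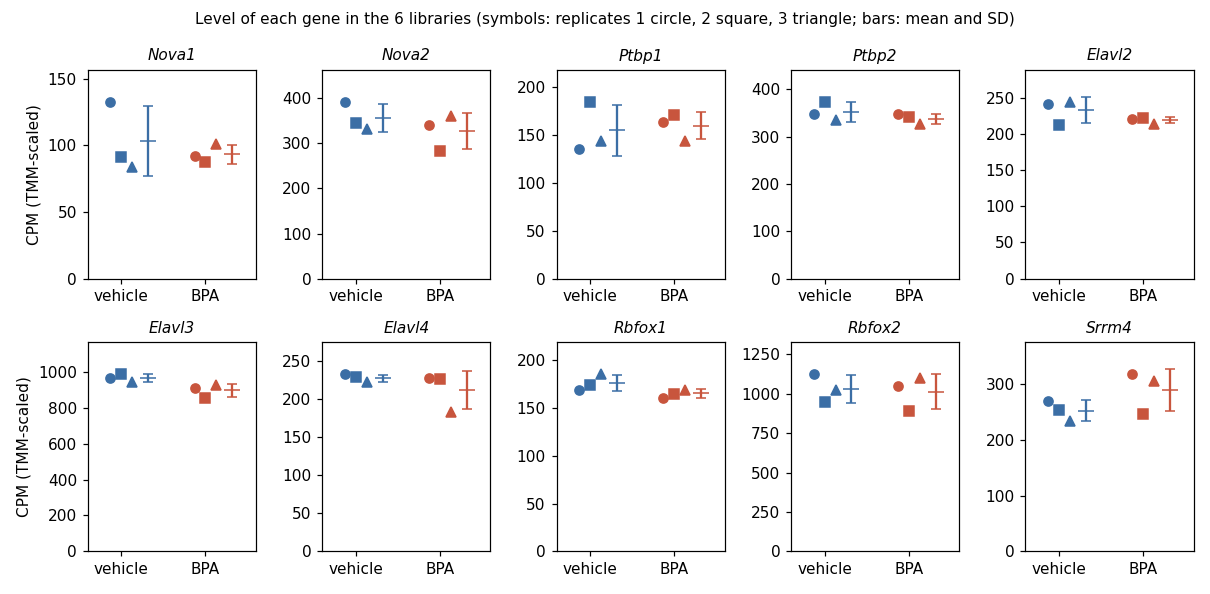
CPM of each of the 10 genes in the 6 libraries, with vehicle and BPA side by side, 1 symbol per replicate, and bars for the mean and SD of 3 libraries on axes that start at 0. Vehicle and BPA libraries overlap in 9 of the 10 panels, and Elavl3 is the exception.

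The Nova proteins bind clusters of YCAY words and regulate exons of synaptic proteins. Nova1 was at 133, 91.6 and 83.6 CPM in vehicle replicates 1, 2 and 3 and at 91.9, 87.3 and 101 in BPA. Vehicle replicate 1 stood above the other 5 libraries, which all lay between 83.6 and 101. The log2 fold change was -0.14 (SE 0.15, 95% interval -0.46 to 0.17, unadjusted p = 0.341), and without vehicle replicate 1 it was 0.085, so its direction rested on that library. Nova2 was at 393, 345 and 333 CPM in vehicle and 340, 283 and 360 in BPA. The groups overlapped, with the lowest library in BPA and the highest in vehicle, and the log2 fold change was -0.13 (SE 0.11, interval -0.35 to 0.10, unadjusted p = 0.257). It was -0.032 without BPA replicate 2 and -0.052 without vehicle replicate 1. Of the 50-base words of Nova2, 30.8% lie in the exons of Gm26821 on the opposite strand, which was listed at 0 counts in every library. Of those of Nova1, 3.0% are shared with Gm33869.

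Ptbp1, the progenitor repressor of neuronal exons, was at 135, 185 and 144 CPM in vehicle and 164, 171 and 144 in BPA. All BPA libraries lay within the vehicle range, and the log2 fold change was 0.050 (SE 0.12, interval -0.21 to 0.31, unadjusted p = 0.686). Leaving out vehicle replicate 1, vehicle replicate 3 or BPA replicate 2 turned its sign, to values of -0.040 to -0.0021, and leaving out vehicle replicate 2 gave 0.21. Ptbp2 was at 348, 374 and 334 CPM in vehicle and 347, 342 and 327 in BPA. Its groups overlapped and its log2 fold change was -0.056 (SE 0.090, interval -0.25 to 0.14, unadjusted p = 0.544), with a value of -0.0084 without vehicle replicate 2, -0.032 without BPA replicate 3 and -0.094 without vehicle replicate 3. As a fold of BPA over vehicle, the 95% interval of Ptbp2 ran from 0.842 to 1.1 and that of Ptbp1 from 0.866 to 1.24. Of the 50-base words of Ptbp1, 18.3% are shared with any other gene. Of the 2 genes that overlap its exons, Gm17134 was at 0 counts and E130317F20Rik at 27 to 63 counts in each library.

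The neuronal Hu proteins bind U-rich and AU-rich elements and stabilise the mRNAs of differentiating neurons. Elavl3 was at 966, 986 and 942 CPM in vehicle and 909, 857 and 925 in BPA. Every BPA library was below every vehicle library, with 925 and 942 as the nearest values. The difference was small and did not pass the test, with means of 965 ± 22 and 897 ± 35.6 (SD, n = 3 each) and a log2 fold change of -0.11 (SE 0.087, interval -0.29 to 0.080) by edgeR. Its unadjusted p was 0.245. The summed ventral telencephalon markers given above (12 of 12 lower, 1126 to 1285 CPM against 972 to 1078) were also separated between the same libraries, and their part in this result was not tested. Elavl3 stayed between -0.13 and -0.076 when any 1 library was left out. Of its 50-base words, 3.13% are shared with another gene, most of them with Gm49318.

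Elavl2 (HuB) was at 242, 212 and 245 CPM in vehicle and 220.3, 222 and 214 in BPA, so that the BPA libraries fell inside the vehicle range. Its log2 fold change was -0.088 (SE 0.094, interval -0.29 to 0.11, unadjusted p = 0.366), and ran from -0.15 without vehicle replicate 2 to -0.052 without vehicle replicate 3. Elavl4 was at 233, 229 and 223 CPM in vehicle and 228, 227 and 184 in BPA. The value of BPA replicate 3, the shallowest library, was below the other 5, which spanned only 223 to 233. The log2 fold change of Elavl4 was -0.097 (SE 0.10, interval -0.31 to 0.12, unadjusted p = 0.351), and -0.0066 without BPA replicate 3.

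The Rbfox proteins bind the word TGCATG beside exons and in 3′ UTRs. Rbfox1 was at 169, 174 and 185 CPM in vehicle and 160.5, 164 and 169 in BPA, and the groups met at 169 between vehicle replicate 1 and BPA replicate 3. Its log2 fold change was -0.095 (SE 0.093, interval -0.29 to 0.10, unadjusted p = 0.323), and -0.059 without vehicle replicate 3. Rbfox2 was at 1123, 945 and 1023 CPM in vehicle and 1051, 892 and 1100.5 in BPA. The lowest library of each group was replicate 2, which were also the pair with most Ttr, and the groups overlapped over most of their range. Rbfox2 had a log2 fold change of -0.023 (SE 0.10, interval -0.24 to 0.20, unadjusted p = 0.825), which was 0.0086 with both of those libraries left out, an alternative added after seeing the data.

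Srrm4 had the smallest p of the 10. It was at 269.7, 254 and 233 CPM in vehicle and 317, 246 and 305 in BPA. BPA replicates 1 and 3 were above every vehicle library, and BPA replicate 2 was below 2 of the 3. The means were 252 ± 18.7 and 289 ± 38 CPM (SD, n = 3 each), a fold of 1.15 with a 95% interval of 0.976 to 1.34. The log2 fold change was 0.20 (SE 0.11, unadjusted p = 0.0907) and ranged from 0.12 without BPA replicate 1 to 0.30 without BPA replicate 2. In the edgeR fit without BPA replicate 2 it had p values of 0.0111 unadjusted and 0.995 adjusted. That fit had 563 of 14010 genes at an unadjusted p under 0.05, against 302 of 13741 with all 6 libraries. With any other library left out, the unadjusted p of Srrm4 was 0.0571 to 0.333. Without both libraries with most Ttr, an alternative added after seeing the data, 954 of 13643 genes had an unadjusted p under 0.05. In that fit the log2 fold change of Srrm4 was 0.31, at 0.0117 unadjusted and 0.565 adjusted. Its antisense neighbour Srrm4os, which shares 0.232% of the 50-base words of Srrm4, was at 7.06, 8.31 and 9.07 CPM in vehicle and 14.1, 6.66 and 8.75 in BPA, and was highest in BPA replicate 1, as was Srrm4.

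**Figure D3:**
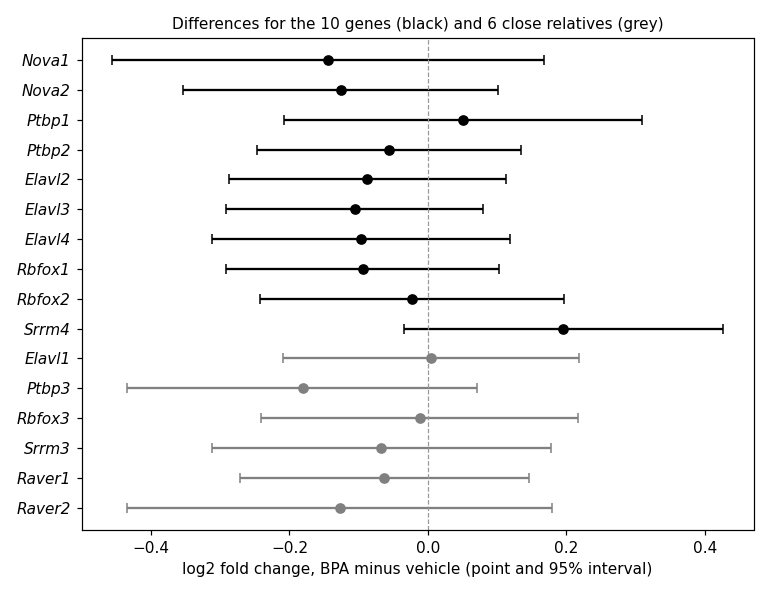
Log2 fold change, BPA minus vehicle, with its 95% interval for the 10 genes (black) and 6 close relatives (grey). The interval of every gene plotted crosses 0, and Srrm4 has the highest value at 0.20.

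The spread within a group differed between genes. In vehicle the coefficient of variation ran from 2.07% (Elavl4) and 2.28% (Elavl3) to 25.6% (Nova1), and in BPA from 1.81% (Elavl2) to 13.2% (Srrm4). The 95% intervals of the 10 fold changes ran from 0.729 at their lowest bound (Nova1) to 1.34 at their highest (Srrm4).

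Because these genes act partly as pairs, the ratio of related members was also compared within each library, which does not depend on scaling between libraries. With 3 against 3 libraries the exact two-sided permutation test can give no p below 0.1. The smallest of the 5 was 0.4, all 5 adjusted p were 1, and the groups overlapped in each. The ratio of Ptbp1 to Ptbp2, the pair that changes over as neurons form, was 0.751, 0.959 and 0.832 in vehicle and 0.917, 0.972 and 0.852 in BPA. It was below 1 in all 6 libraries, lowest in vehicle replicate 1, and the difference in log2 ratio was 0.11 (exact p = 0.4). That difference was 0.030 without vehicle replicate 1, 0.068 without BPA replicate 2 and 0.21 without vehicle replicate 2. Its mean was 0.877 per exonic length and 0.54 per coding transcript length. Of the 50-base words of Ptbp1, 18.3% are shared with another gene, and 0.0% of those of Ptbp2. How such reads were counted is not given, so the order of Ptbp1 and Ptbp2 carries that uncertainty.

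Elavl3 to Elavl4 was the only one of these ratios above 1, at 3.25, 3.36 and 3.3 in vehicle and 3.12, 2.95 and 3.93 in BPA. Vehicle libraries were close together and BPA libraries spread to both sides of them, with a difference in log2 ratio of 0.0017 (exact p = 1). Rbfox1 to Rbfox2 was 0.278, 0.34 and 0.334 in vehicle and 0.283, 0.341 and 0.284 in BPA, a difference of -0.069 (exact p = 1) that ran from -0.16 to -0.016 with any 1 library left out. Nova1 to Nova2 averaged 0.272, with a difference of 0.018 (exact p = 0.9). Elavl2 to Elavl4 averaged 0.664, with a difference of 0.022 (exact p = 1), and 1.01 per coding transcript length, so which of them is higher was not settled.

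**Figure D4:**
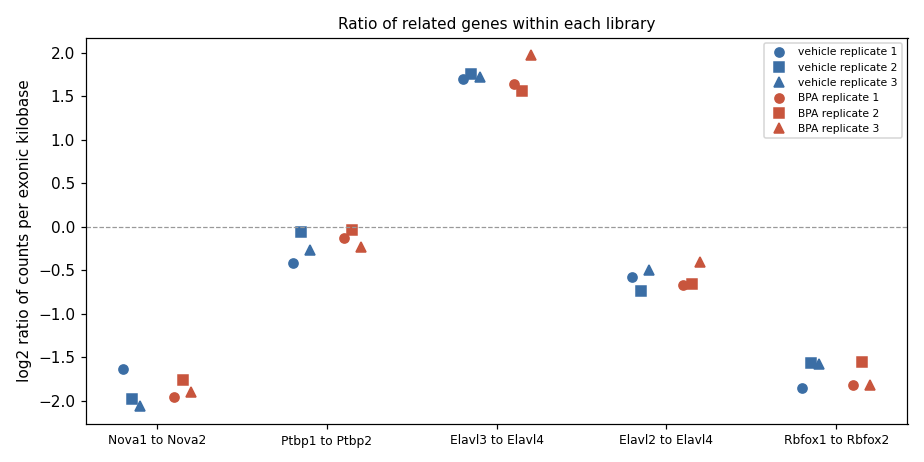
Log2 ratio of counts per exonic kilobase between related genes within each library, with 1 symbol per library and a dashed line at equal levels. Elavl3 to Elavl4 lies above 0 and the other 4 ratios below it in every library, and vehicle and BPA libraries overlap in all 5.

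Close relatives outside the 10 also showed no call. Elavl1 was at 238 ± 27.3 CPM in vehicle and 239 ± 9.8 in BPA (SD, n = 3 each), with a log2 fold change of 0.0038. Rbfox3 was at 117 ± 11.4 and 116 ± 8.95 CPM, and Srrm3 at 48.1 ± 2.35 and 46 ± 3.56. Ptbp3 was at 54.6, 47 and 46.1 CPM in vehicle and 45.2, 40.3 and 45.2 in BPA, which did not overlap, with a log2 fold change of -0.18 and an unadjusted p of 0.148. The partners of Ptbp1 in repression, Raver1 and Raver2, had log2 fold changes of -0.063 and -0.13. Rest, the repressor of neuronal genes whose splicing Srrm4 controls, was at 31.1 ± 4.86 and 32.5 ± 3.47 CPM, a log2 fold change of 0.056. All 7 had an adjusted p of 1 by edgeR.

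Among 48 other neuronal RNA-binding proteins, 45 were tested. BPA was above vehicle for 19 and below it for 26, and the median log2 fold change was -0.012. None passed an adjusted p of 0.1 and 1 of the 45 (2.22%) had an unadjusted p under 0.05, against 2.2% of all genes tested. That gene was Celf4, a splicing and translation regulator of excitatory neurons, at 336, 335 and 328 CPM in vehicle and 282, 292 and 302 in BPA. Every BPA library of Celf4 was lower, with a log2 fold change of -0.19 (SE 0.088, unadjusted p = 0.0458, adjusted p = 1). The groups did not overlap for 3 of the 45 genes, near the share of 6.75% over all genes. Tial1 was next after Celf4 at 139.8 ± 15.6 and 158 ± 14.9 CPM (unadjusted p = 0.118).

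Of the 41 general SR and hnRNP splicing factors, 40 were tested, with 21 higher, 19 lower, none at an unadjusted p under 0.05 and a median of 0.011. Srsf1 was listed at 0 counts in all 6 libraries and gave no value. The smallest p among them belonged to Hnrnpa0, at 560.4, 433 and 475 CPM in vehicle and 419.9, 371 and 498 in BPA (log2 fold change -0.19, unadjusted p = 0.131). Hnrnpa3 followed at 0.19 (unadjusted p = 0.155) and Srsf6 at 0.13 (unadjusted p = 0.185), both with overlapping groups.

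Of 28 transcripts known to be spliced or stabilised by the 10 proteins, all were tested, with 15 higher, 13 lower, none at an unadjusted p under 0.05 and a median of 0.010. Bdnf, an mRNA bound by Hu proteins, was at 2.35, 1.83 and 3.55 CPM in vehicle and 1.41, 1.63 and 1.75 in BPA, from 6 to 18 counts a library. Its groups did not overlap, which held for 1 of the 28 genes, against 6.75% of all genes tested. The log2 fold change of Bdnf was -0.67, with an interval of -1.46 to 0.13 and an unadjusted p of 0.0956 by edgeR. Gphn, the inhibitory synapse scaffold gephyrin spliced by Nova, was at -0.21 (interval -0.46 to 0.044) and Unc13b, a synaptic vesicle priming factor with an Srrm4-dependent exon, was at 0.23 (interval -0.052 to 0.50). These are differences in the amount of target RNA, and the inclusion of the regulated exons was not measured here.

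Since several of the 10 mark progenitors or neurons, their levels were set against an index of cell makeup in each library. It was defined as the mean log2 CPM of the 12 neuron markers minus that of the 10 radial glia markers. None of the 10 genes is in either list, but the neuron markers Snap25 and Gap43 are also among the known target transcripts above. The index is therefore not fully separate from the targets of the 10 proteins. The index was 2.09, 1.98 and 2.23 in vehicle and 1.99, 2.08 and 2.33 in BPA, a difference of 0.035 (exact two-sided permutation p = 0.7). Over the 6 libraries, Ptbp2 had Pearson's r = -0.841 (exact permutation p = 0.0333, adjusted over the 10 genes 0.167) and Spearman's rho = -0.829 (exact p = 0.0583, adjusted 0.583). Elavl4 had r = -0.81 (exact p = 0.0222, adjusted 0.167) and rho = -0.657 (exact p = 0.175, adjusted 0.583). Neither passed the adjustment. With cycling cell markers in place of radial glia, r was -0.559 for Ptbp2 (exact p = 0.233) and -0.705 for Elavl4 (exact p = 0.162), so both nominal p depended on the choice of progenitor list.

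Without the 2 libraries farthest from the median index, BPA replicate 3 and vehicle replicate 3, r was -0.656 for Ptbp2 and 0.364 for Elavl4. For Elavl4, r was -0.57 without BPA replicate 3 alone and -0.917 without vehicle replicate 3 alone. The relation of Elavl4 thus leaned on BPA replicate 3 more than on vehicle replicate 3. Ptbp1 had r = -0.659 (exact p = 0.165, adjusted 0.551), rho = -0.714 (exact p = 0.136, adjusted 0.583) and r = -0.635 without the same 2 libraries. The other 7 genes had r between -0.0902 (Elavl3) and 0.409 (Rbfox2), with adjusted exact p from 0.872 to 0.994, and rho between -0.143 and 0.486, with adjusted exact p from 0.839 to 0.919. Without the same 2 libraries their r ran from -0.441 (Srrm4) to 0.765 (Elavl2). Within vehicle or BPA alone, 3 libraries were too few for a value.

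**Figure D5:**
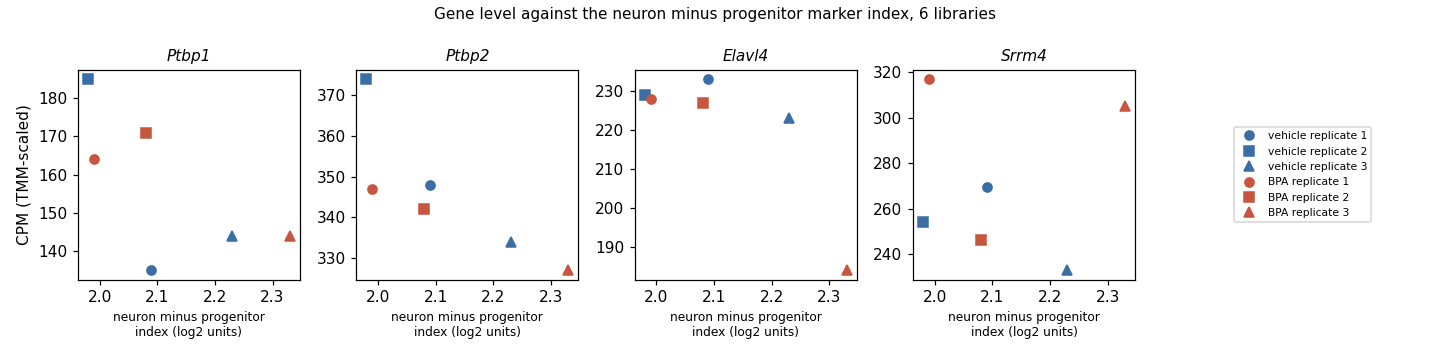
CPM of 4 of the genes against the neuron minus progenitor marker index (log2 units) in the 6 libraries, with 1 symbol per library. Ptbp2 and Elavl4 are lowest in BPA replicate 3, which has the highest index at 2.33.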

How the data were processed

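The authors deposited a table of whole-number counts per gene, with 1 column for each of 6 fetal cortex libraries. Per the study's methods, strand-specific libraries of total RNA were read as single ends of 50 bases, aligned with TopHat2 2.0.14 to GRCm38 and counted with featureCounts. The methods also name an assembly of transcripts with StringTie 1.2.4 on GENCODE models. For these libraries they do not say which gene models were used for counting. The options for strand and for reads with several alignments are not given in the sources used here, so genes that overlap or share sequence are uncertain. The methods and labels give GD15.5, and the study's results section gives a later age. Groups came from the labels, and replicates were numbered in accession order, so the numbers pair nothing.

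Counts were analysed in R 4.3.3 with edgeR 4.0.16. Genes were kept by filterByExpr (minimum count 10, minimum total 15), which left 13741 genes with 99.7% of counts. BPA was compared with vehicle by the quasi-likelihood test after TMM scaling, with Benjamini-Hochberg adjustment over all genes and a threshold of 0.1. Standard errors and 95% intervals are those the quasi-likelihood statistic implies. CPM were computed from the deposited counts, and log2 CPM used a prior count of 2. Exonic lengths (union of exons, GENCODE M21) matched 95.5% of tested genes by symbol. Ratios and the index were compared by the exact permutation test (two-sided, smallest p 0.1), and correlations by the exact test over all 720 orders. The fit was run on simulated counts with a single common spread for all genes and folds larger than those of the members. That run does not measure the power to see differences as small as those reported here. All 10 members are named, and of each list the 3 genes averaging at least 1 CPM with the smallest p, besides close relatives. The members and lists were chosen with earlier results of these data known. Alternatives were DESeq2 1.42.0, limma-voom (limma 3.58.1), the likelihood ratio test, other scalings and filters, and leaving out each library. Precision is limited by 3 fetuses a group and by the depth of 3444601 to 7180835 counts.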

Additional observations from a re-analysis of the deposited data

How the results depend on the processing

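No member passed an adjusted p of 0.1 under any of the alternatives run. Over all genes tested, the count past it (0 as reported, by edgeR's quasi-likelihood test) was 3 with DESeq2, 4 with the likelihood ratio test, 19 with no filter on low counts and 15 without both libraries with most Ttr, an alternative chosen after seeing the data. Leaving out 1 library at a time gave 0 to 1. The count at an unadjusted p under 0.05 (302 as reported) was 126 with DESeq2, 620 with no filter, 162 with at least 10 CPM in at least 3 libraries and 954 without both libraries with most Ttr. It was 194 to 708 with 1 library left out, with 708 without vehicle replicate 2, 563 without BPA replicate 2, and 194 without vehicle replicate 3 or BPA replicate 1. Of the members, 0 to 1 then had such a p, and 1 without both libraries with most Ttr, which was Srrm4 each time. Among log2 fold changes, those of Nova1 (-0.269 to 0.0848), Ptbp1 (-0.0401 to 0.205) and Rbfox2 (-0.0854 to 0.0595) changed sign with 1 library left out, and Rbfox2 was 0.0086 without both libraries with most Ttr. Other scalings, filters and tools turned the sign of no member. Differences in log2 ratio changed sign with 1 library left out for Nova1 to Nova2 (-0.0664 to 0.147), Elavl3 to Elavl4 (-0.123 to 0.0848) and Elavl2 to Elavl4 (-0.0651 to 0.0757). The correlations with the index of Nova1 (-0.121 to 0.283), Nova2 (-0.0898 to 0.259), Elavl2 (-0.0863 to 0.85), Elavl3 (-0.318 to 0.264) and Srrm4 (-0.673 to 0.452) did so too, and with cycling cell markers in place of radial glia they were -0.0941 for Nova1, 0.0523 for Elavl3 and -0.303 for Srrm4, with -0.4 for Ptbp1 and 0.596 for Rbfox1 among those that kept their sign. The cause was not tested. No paired analysis was possible because the replicate numbers are in accession order and pair no fetuses.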

Other observations

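The 2 libraries with most Ttr, replicate 2 of each group, had the highest Ptbp1 of their group (185 CPM in vehicle and 171 in BPA) and the lowest Rbfox2 (945 and 892). They also had the lower Srrm4 in BPA (246, against 317 and 305) but not the lowest in vehicle (254, against 269.7 and 233). Whether Ttr-rich tissue has a part in these values was not tested.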
